A study of Mus musculus with 11 samples.

Results

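The binding of 5 transcription factors (TFs) was examined around 10 genes of the BMP signaling pathway and the Id family in mouse epiblast stem cells (EpiSCs). The genes were Bmp4, Nog, Chrd, Bambi, Bmpr1a, Smad1, Smad6, Id1, Id2 and Id3. Every ChIP-seq peak whose midpoint fell in the gene body or in the 50 kb on either side of it, in the mm9 genome, was taken, which gave 670 peaks of the 1004445 in the 10 peak lists. The 10 windows covered 1.26 Mb in all, and the annotation used here (GENCODE vM1) holds 22367 protein-coding genes with which the members could be compared.

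EpiSCs are pluripotent cells derived from the postimplantation epiblast, and the line used was of the 129/Sv strain. All cultures were feeder-free, received FGF2 at 10 ng/ml, and were transfected transiently with a pCAGGS plasmid that drives a TF fused to a BLRP tag together with the biotin ligase BirA, so that the DNA recovered on streptavidin was bound by an exogenous TF and not by the endogenous protein. ZIC2, OTX2, SOX2, POU5F1 and POU3F1 were each profiled in EpiSCs kept with activin at 20 ng/ml, and again in cells freed from activin for 18 h before harvest, here called the activin-free culture. There was 1 library for each TF in each culture, so no difference between TFs or cultures has a replicate check, no test across samples was possible, and a difference between cultures cannot be told apart from one between 2 libraries. The lists held 62457 to 126908 peaks each, every list carried a very strong peak over the gene of its own TF, which the plasmid also contains, and the depth of sequencing is unknown because the lists give no reads.

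BMPs are secreted ligands of the TGFβ family. They bind pairs of type I and type II receptor kinases, which phosphorylate SMAD1, SMAD5 and SMAD9, and these enter the nucleus with SMAD4 and bind DNA. Secreted antagonists such as noggin and chordin hold the ligand away from its receptor, BAMBI and SMAD6 dampen the signal inside or at the surface of the cell, and the Id genes, whose products are helix-loop-helix proteins that lack a DNA-binding region, are classical direct targets. In the postimplantation embryo BMP4 acts on the epiblast in mesoderm and germ cell formation, while activin and Nodal signal through other SMADs.

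The Id genes carried matches to a sequence through which SMADs are known to act, and each match lay inside a ZIC2 peak. Whether SMADs bind or act at these matches was not tested. The BMP response sequence, GGCGCC and GTCT separated by any 5 bases, was searched for on both strands of the 10 windows. It occurred 6 times, in Id1, Id2 and Id3 and in none of the other 7 windows. The stretches are given here because they are the positions at which matches to a known BMP-responsive sequence and the peaks coincide. The match is in capitals, with 40 bases on either side.
Id1, 3.23 kb downstream of the TSS (chr2:152565167-152565261, plus strand): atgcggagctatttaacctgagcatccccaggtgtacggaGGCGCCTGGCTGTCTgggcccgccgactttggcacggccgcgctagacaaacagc
Id2, 3.04 kb downstream of the TSS (chr12:25777869-25777963, minus strand): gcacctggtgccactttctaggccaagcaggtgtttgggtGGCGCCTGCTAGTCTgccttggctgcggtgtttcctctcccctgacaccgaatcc
Id2, 2.77 kb upstream of the TSS (chr12:25783679-25783773, minus strand): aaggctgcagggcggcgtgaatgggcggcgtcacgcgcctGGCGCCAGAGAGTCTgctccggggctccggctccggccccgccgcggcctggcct
Id3, 2.95 kb upstream of the TSS (chr4:135696415-135696509, plus strand): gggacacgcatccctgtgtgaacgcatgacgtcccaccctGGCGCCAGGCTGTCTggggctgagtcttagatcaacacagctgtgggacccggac
Id3, 1.30 kb downstream of the TSS in an intron (chr4:135700668-135700762, plus strand): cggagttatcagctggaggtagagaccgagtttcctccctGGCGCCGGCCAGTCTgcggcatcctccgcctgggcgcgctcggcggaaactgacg
Id3, 4.49 kb downstream of the TSS (chr4:135703856-135703950, plus strand): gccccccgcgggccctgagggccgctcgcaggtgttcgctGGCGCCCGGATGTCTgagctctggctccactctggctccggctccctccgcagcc

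All 6 matches were inside a ZIC2 peak in EpiSCs and again in the activin-free culture. Of the 447 matches in the genome, 33.6% were inside a ZIC2 peak in EpiSCs and 31.3% in the activin-free culture. Among the 118 genome matches within 5 kb of the transcription start site (TSS) of a protein-coding gene, as all 6 of the Id matches were, the shares were 73.7% and 70.3%. A high share of such sequences near any TSS was thus inside a ZIC2 peak, and 6 matches at 3 genes cannot show whether the Id genes differed from it. The peak score used throughout is the value given by the peak caller, −10 times the log10 of a p-value for one library against input, and a score of 50 is the lowest in the lists. The ZIC2 peak over the Id1 match had a score of 253 in EpiSCs and 264 in the activin-free culture. At Id2 the scores were 1227 and 2002 for the upstream match, and 232 and 165 for the downstream match. At Id3 they were 744 and 1113 in the intron, 332 and 269 downstream, and 88.4 and 168 upstream. The strongest of these peaks in both cultures were thus at Id2 upstream and in the Id3 intron.

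OTX2 peaks covered 2 of the 6 matches in EpiSCs, both at Id3, where the scores were 180 upstream and 127 in the intron. In the activin-free culture they covered 3, at Id3 with scores of 144 and 236 and at Id1 with 343. Genome-wide, 6.04% of the matches lay in an OTX2 peak in EpiSCs and 6.71% in the activin-free culture. A SOX2 peak with its midpoint 3.19 kb upstream of the TSS covered the upstream Id3 match in the activin-free culture, while no SOX2 peak covered a match in EpiSCs, and no POU5F1 or POU3F1 peak lay within 10 kb of any Id gene TSS. The map of peaks around the Id genes shows these positions.

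**Figure D1:**
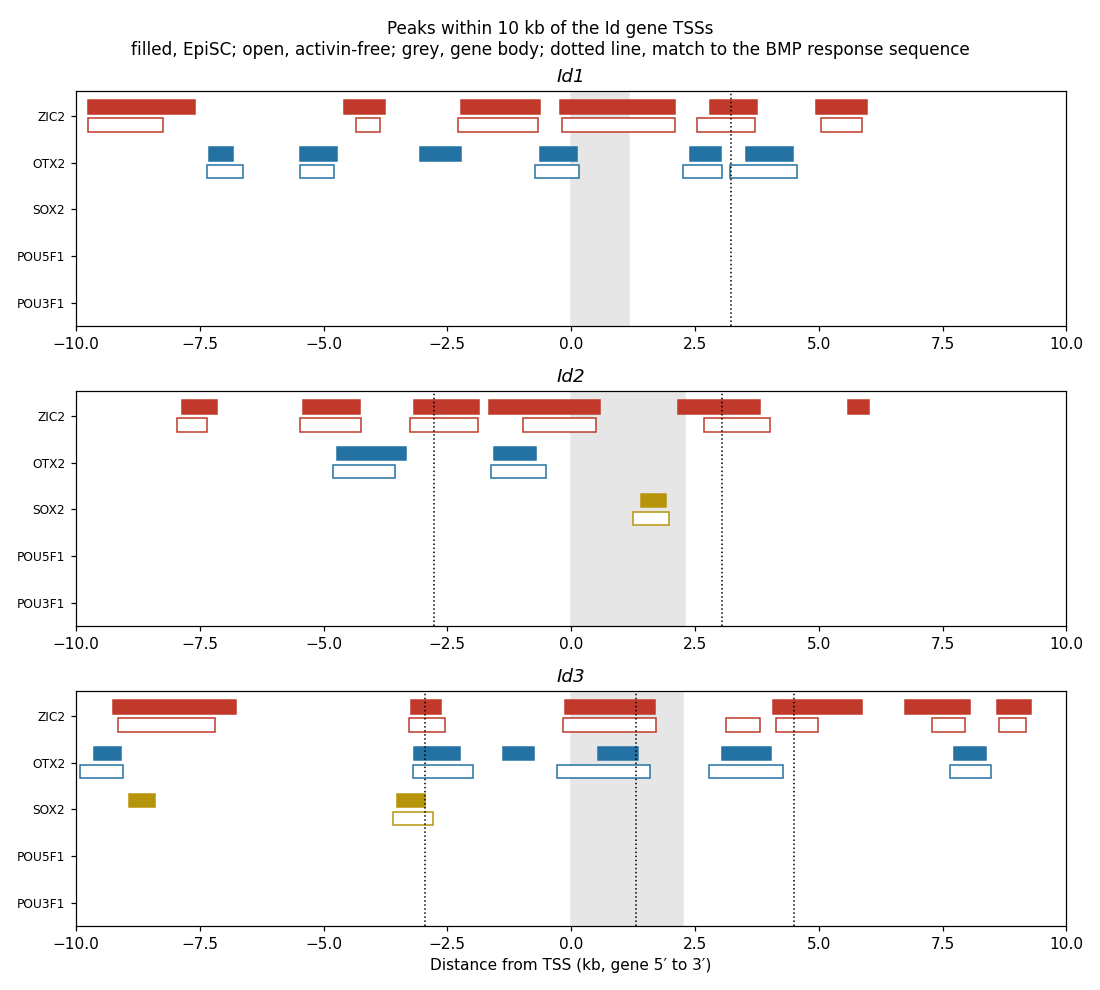
Peaks within 10 kb of the TSS of Id1, Id2 and Id3, as bars from peak start to peak end against the distance from the TSS in kb, with the gene running from left to right. Filled bars are EpiSC peaks and open bars are activin-free peaks, grey is the gene body, and the 6 dotted lines mark the matches to the BMP response sequence, each of which crosses a ZIC2 bar in both cultures.

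A match within 5 kb of the TSS was found at 0.554% of all protein-coding genes, and a match anywhere in the window at 3.76%. Only 4 genes had 2 or more matches within 5 kb, namely Id3, B3galt6 and Sdf4 with 3 each and Id2 with 2. In all 6 Id matches the next base was G, as it was in 169 of the 447 genome matches, or 37.8%. Among 5 matches at other pathway genes, described below, the next base was G in 4, or 80.0%. Id2 and Id3, but not Id1, were thus among the few genes with repeated copies of this sequence within 5 kb of the TSS.

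The 200 bases upstream of the Id TSSs are shown next because a ZIC2 peak covered each TSS in both cultures, while none of them held CAGCAGG, which approximates the preferred sequence of ZIC proteins, or the SMAD sequence GGCGCC, on either strand. These were found upstream of 6.62% and 9.92% of all genes. No capitals appear in them for that reason, and the absence says only that these letters are not in this window.
Id1 upstream (chr2:152561787-152561986, plus strand): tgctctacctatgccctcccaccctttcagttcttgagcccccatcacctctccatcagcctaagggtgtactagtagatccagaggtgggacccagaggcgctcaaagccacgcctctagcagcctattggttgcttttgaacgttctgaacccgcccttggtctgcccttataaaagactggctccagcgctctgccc
Id2 upstream (chr12:25780958-25781157, minus strand): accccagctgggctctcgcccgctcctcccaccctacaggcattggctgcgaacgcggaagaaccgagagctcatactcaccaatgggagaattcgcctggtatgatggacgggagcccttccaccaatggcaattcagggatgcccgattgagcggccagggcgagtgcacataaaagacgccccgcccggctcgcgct
Id3 upstream (chr4:135699212-135699411, plus strand): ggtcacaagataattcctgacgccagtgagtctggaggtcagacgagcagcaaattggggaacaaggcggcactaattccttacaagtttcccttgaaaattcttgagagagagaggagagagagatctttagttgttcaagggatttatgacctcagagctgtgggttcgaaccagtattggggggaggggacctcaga

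The next 4 stretches, of 201 bases on the plus strand, are examples of peaks with the sequence preferred by the TF, in capitals on whichever strand it occurs. The first 3 were chosen from EpiSC peaks that held this sequence within 100 bp of the midpoint, so its presence there is no result. Most peaks of these TFs in the windows lacked it, and the shares are given below. The Smad6 stretch is the center of an intronic ZIC2 peak (CAGCAGG), the Id1 stretch that of an upstream OTX2 peak (GGATTA), and the Bmpr1a stretch that of an intronic POU5F1 peak (the octamer ATGCAAAT or ATGCATAT). The Smad1 stretch, from between genes and far from the TSS, is the center of the segment that OTX2, POU5F1 and POU3F1 peaks of modest score shared, with all of these sequences and the SOX sequences ACAAAG and ACAATG in capitals.
Smad6, ZIC2 peak of score 1176 (chr9:63825826-63826026, plus strand): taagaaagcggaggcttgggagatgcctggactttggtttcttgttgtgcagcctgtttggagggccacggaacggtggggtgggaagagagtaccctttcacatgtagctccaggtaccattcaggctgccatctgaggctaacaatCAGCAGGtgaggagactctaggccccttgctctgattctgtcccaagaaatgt
Id1, OTX2 peak of score 186 (chr2:152554812-152555012, plus strand): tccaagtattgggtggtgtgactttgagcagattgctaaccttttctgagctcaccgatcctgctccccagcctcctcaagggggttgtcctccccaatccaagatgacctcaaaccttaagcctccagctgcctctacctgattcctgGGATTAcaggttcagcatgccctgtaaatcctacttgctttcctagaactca
Bmpr1a, POU5F1 peak of score 889 (chr14:35242492-35242692, plus strand): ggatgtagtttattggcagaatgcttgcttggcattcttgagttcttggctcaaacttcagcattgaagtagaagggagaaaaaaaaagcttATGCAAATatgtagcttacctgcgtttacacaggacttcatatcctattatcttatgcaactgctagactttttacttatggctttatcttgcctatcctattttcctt
Smad1, site of 3 TFs (chr8:81820341-81820541, plus strand): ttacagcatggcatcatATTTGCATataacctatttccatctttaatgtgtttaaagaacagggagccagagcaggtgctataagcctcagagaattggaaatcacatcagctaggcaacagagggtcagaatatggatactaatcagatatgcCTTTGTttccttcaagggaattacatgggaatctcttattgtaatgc

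ZIC2 and OTX2 supplied most of the peaks around the 10 genes. ZIC2 had 159 peaks in EpiSCs and 157 in the activin-free culture, and OTX2 had 110 and 95. SOX2 had 27 and 26, POU5F1 26 and 47, and POU3F1 10 and 13. Per 100 kb of window, ZIC2 had 12.7 peaks in EpiSCs against 8.85 over the windows of all protein-coding genes, and OTX2 had 8.76 against 6.44. SOX2 and POU5F1, with 2.15 and 2.07, were close to their values over all genes, 2.14 and 2.04. POU3F1 had 0.797 against 2.63, and its peaks occurred in 3 of the 10 windows, while 47.8% of all genes had at least 1. The values over all genes are summed peaks divided by summed window length. By single gene, the median POU3F1 density in EpiSCs was 0 per 100 kb. The map of the windows shows ZIC2 and OTX2 peaks at each member and the POU3F1 peaks at Bmpr1a, Smad1 and Nog alone.

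**Figure D2:**
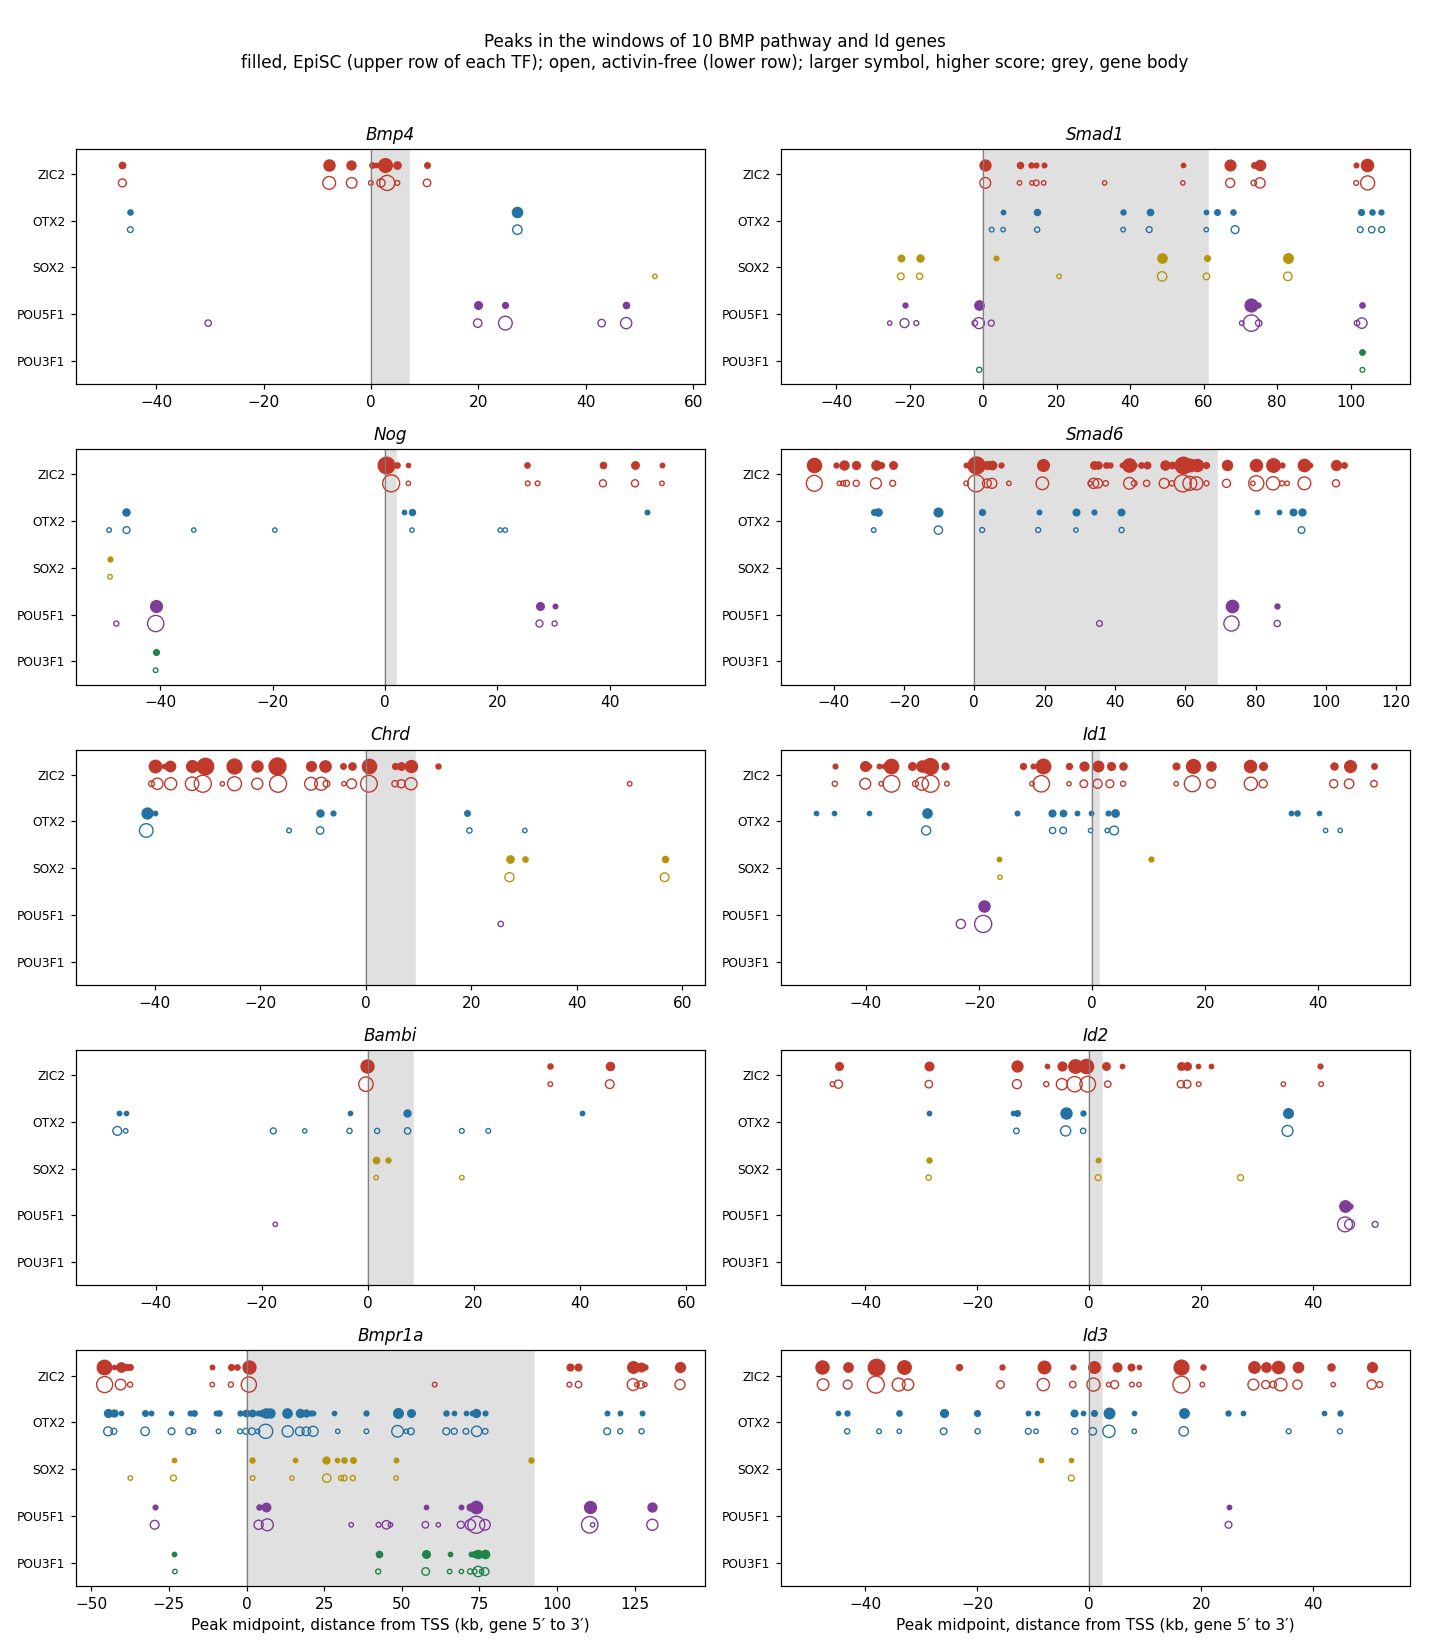
Positions of the peaks in the 10 windows, as the distance of the peak midpoint from the TSS in kb with the gene running from left to right. Each TF has a row of filled circles for EpiSC and a row of open circles for the activin-free culture, larger circles stand for higher scores, grey is the gene body, and the ZIC2 rows with the most circles are those of Smad6 in both cultures.

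A ZIC2 peak covered the TSS of all 10 members in EpiSCs and in the activin-free culture, beside 61.6% and 59.8% of all protein-coding genes. OTX2 peaks covered the TSS of Bmpr1a and Id1 in EpiSCs and of Bmpr1a, Id1 and Id3 in the activin-free culture, beside 9.52% and 9.10% of all genes. No member had a SOX2, POU5F1 or POU3F1 peak over its TSS, and for these TFs the share of all genes was at most 5.12%. The promoter peaks of ZIC2 differed widely in score. Those of Smad6 (3100 in both cultures) and Nog (2812 in EpiSCs and 3100 in the activin-free culture) had the highest scores, and that of Bmp4 (110 and 77.8) was the weakest of the 10. The value 3100 recurred, also over the own gene of the TF in all 10 lists, so equal scores of 3100 may hide differences in strength. Scores of both cultures are set side by side in the gene descriptions, EpiSC first, and they differed between whole lists too. Over all EpiSC peaks with an overlapping activin-free peak, the median ratio of the activin-free to the EpiSC score was highest for POU5F1, at 3.83. It was 1.35 for both OTX2 and SOX2, 1.13 for POU3F1 and 1.09 for ZIC2.

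The ligand gene Bmp4 was bound mainly downstream of its promoter. Its highest ZIC2 peak was centered 2.53 kb downstream of the TSS in EpiSCs with a score of 1303, and 3.0 kb downstream in the activin-free culture with 1916. It was 1 of 8 ZIC2 peaks in each culture, of which 6 lay within 10 kb of the TSS. There were 2 OTX2 peaks in each culture, and the stronger, 27.3 kb downstream, had scores of 510 and 405. POU5F1 had 3 peaks in EpiSCs and 5 in the activin-free culture, all downstream of the gene except the activin-free peak 30.4 kb upstream, and the peak centered 25.0 kb downstream had a score of 137 in EpiSCs and 1311 in the activin-free culture. SOX2 had a single weak peak in the activin-free culture, with a score of 58.3. No peaks of different TFs overlapped in this window in either culture, in 13 sites in EpiSCs and 16 in the activin-free culture, where a site is a group of peaks joined by at least 1 shared bp.

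The antagonist genes Nog and Chrd differed in how their ZIC2 peaks were placed. Nog, which encodes noggin and has no other protein-coding gene in its window, had 7 ZIC2 peaks in each culture. A broad peak over the single-exon gene had the highest scores, and the rest were weaker. At 40.8 kb upstream, Nog also had a POU5F1 peak with scores of 779 in EpiSCs and 2560 in the activin-free culture, which a POU3F1 peak with scores of 130 and 77.4 overlapped. The highest OTX2 peaks had scores of 208 and 191, and the only SOX2 peak had 87.7 and 68.4. Chrd, which encodes chordin, had 17 ZIC2 peaks in EpiSCs and 19 in the activin-free culture, but only 4 in each were nearer to its TSS than to that of another gene. The Chrd window holds 5 other genes, and the TSSs of Clcn2, Fam131a, Polr2h and Thpo were also inside ZIC2 peaks. The ZIC2 peak over the Chrd TSS itself had scores of 1522 and 2890. The highest OTX2 peak of the window, with 608 and 1261, was in an intron of the neighboring Eif4g1, the highest SOX2 peaks had 220 and 382, and POU5F1 was represented by 1 peak, in the activin-free culture with a score of 113.

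Bambi, which encodes a receptor-like protein without a kinase region that dampens BMP signals, had the fewest ZIC2 peaks of the 10 members. There were 3 in each culture, or 2.77 per 100 kb, and the peak over the TSS had scores of 1081 and 1575. OTX2 had 5 peaks in EpiSCs and 9 in the activin-free culture, of which 4 in each list overlapped a peak of the other. Of the 5 activin-free OTX2 peaks without a counterpart, those 17.8 kb upstream and 1.75 kb downstream of the TSS had scores of 140 and 102. The highest scores were 199 and 348 for OTX2 and 162 and 68.6 for SOX2, and the single POU5F1 peak, in the activin-free culture, had 56.5. The window also had the lowest GC content of the 10, 42.6%, whereas those of Smad6, Id3 and Id1 had 50.3%, 49.7% and 49.3%, and the median over all genes was 44.3%. The part of base composition in the ZIC2 counts was not tested.

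Bmpr1a, which encodes a type I BMP receptor, was the member with the most OTX2, SOX2, POU5F1 and POU3F1 peaks. OTX2 had 35 peaks in EpiSCs and 29 in the activin-free culture, or 18.2 and 15.1 per 100 kb, and 98.1% and 97.7% of all genes had the same or a lower density. Of these peaks, 19 in EpiSCs and 17 in the activin-free culture had the midpoint in an intron of Bmpr1a. The highest OTX2 peak in EpiSCs, 48.8 kb into the gene, had a score of 434, and that in the activin-free culture, 6.15 kb into the gene, had 1484. The latter was 3854 bp wide and overlapped separate EpiSC peaks with scores of 362, 387 and 153. SOX2 had 9 peaks in each culture, 7 of them in introns, with a highest score of 196 in EpiSCs and 308 in the activin-free culture. The gene body is 92608 bp long, so that the count in its introns also reflects its length, which the density takes into account.

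The POU factors met in the 3′ part of Bmpr1a. The POU5F1 peak centered 73.9 kb into the gene, whose sequence with its octamer is shown above, had scores of 889 in EpiSCs and 3100 in the activin-free culture. OTX2 and POU3F1 peaks overlapped it in both cultures. All but 1 of the POU3F1 peaks of the window, 7 of 8 in EpiSCs and 9 of 10 in the activin-free culture, were in introns of Bmpr1a, and the highest scores were 291 and 534. At 76.8 kb, where EpiSCs had overlapping OTX2 and POU3F1 peaks only, the activin-free culture had a POU5F1 peak with a score of 580. ZIC2, in contrast, had no peak in the introns in EpiSCs and 1 in the activin-free culture, and its promoter peak had scores of 1079 and 1949. The highest ZIC2 peak of the window, outside the gene, had 1610 and 2427.

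The signal transducer gene Smad1 showed POU5F1 and SOX2 peaks of relatively high score outside its promoter. POU5F1 had 5 peaks in EpiSCs and 11 in the activin-free culture. The strongest, 73.0 kb downstream of the TSS and beyond the end of the gene, had scores of 1031 and 2665, and that 1.08 kb upstream of the TSS had 403 in EpiSCs and 640 in the activin-free culture. SOX2 had 6 peaks in each culture, and the highest in EpiSCs, 82.9 kb downstream of the TSS, had scores of 428 and 316, while the highest in the activin-free culture, 48.7 kb downstream, had 410. The highest OTX2 peaks had 159 and 259. The ZIC2 peak over the TSS had scores of 617 and 603, and the highest ZIC2 peak, 105 kb downstream, had 884 and 1435. About 103 kb downstream of the TSS, OTX2, POU5F1 and POU3F1 peaks overlapped in EpiSCs with scores of 131, 109 and 114, and in the activin-free culture a second POU5F1 peak joined a ZIC2 peak to them, which made this the only site of 4 TFs in the windows.

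Smad6, which encodes an inhibitory SMAD and is itself induced by BMP, had the most ZIC2 peaks of the 10 members. There were 37 in EpiSCs and 34 in the activin-free culture, or 21.9 and 20.1 per 100 kb, and 87.3% and 87.0% of all genes had the same or a lower density. No other protein-coding gene lies in this window, and all of these peaks were nearest to the Smad6 TSS. In EpiSCs 18 of them were in introns of the gene. ZIC2 peaks with a score of 3100 covered the TSS in both cultures, and another lay 59.3 kb into the gene in the activin-free culture. OTX2 peaks numbered 12 in EpiSCs and 7 in the activin-free culture, with highest scores of 337 and 295, SOX2 had none in either, and the highest POU5F1 peak, 73.2 kb downstream of the TSS, had scores of 906 and 1939.

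Among the Id genes, whose products bind and inactivate E proteins, Id1 had the highest ZIC2 density of all members. Its 26 ZIC2 peaks in EpiSCs and 23 in the activin-free culture gave 25.7 and 22.7 per 100 kb, which 92.8% and 91.0% of all genes did not exceed. Most of these peaks stood nearer to the TSS of a neighboring gene, since 8 of 26 and 7 of 23 were nearest to that of Id1, and the highest, 28.6 kb upstream, had scores of 2288 and 3100. The peak over the Id1 TSS had scores of 552 and 373. OTX2 had 14 peaks in EpiSCs and 8 in the activin-free culture, and 6 in each list overlapped a peak of the other. The 8 EpiSC peaks without a counterpart had low scores, of which the highest was 102, and the highest scores of all were 395 and 372. A POU5F1 peak 19.1 kb upstream had scores of 656 and 3196, and the highest SOX2 scores were 91.5 and 52.4.

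Id2 had 14 ZIC2 peaks in each culture, all nearest to its own TSS, and 6 of them in EpiSCs and 5 in the activin-free culture were within 10 kb of it. The ZIC2 peak over the TSS had scores of 1511 and 2195. The highest OTX2 peak in EpiSCs, 4.03 kb upstream, had a score of 639 and overlapped a ZIC2 peak, and the highest in the activin-free culture, 35.4 kb downstream, had 627. The highest scores of SOX2 at Id2 were 98 and 146, and those of POU5F1 were 710 and 1771. Id3 had 20 ZIC2 peaks in EpiSCs and 23 in the activin-free culture, and its promoter peak, which also contains the intronic BMP response sequence shown above, had scores of 744 and 1113. OTX2 peaks were dense at Id3, with 17 and 14 peaks or 16.6 and 13.7 per 100 kb, and 96.4% and 95.7% of all genes had the same or a lower density. The highest OTX2 peak, 3.55 kb downstream of the Id3 TSS, had scores of 564 and 894. The highest SOX2 scores at Id3 were 66.7 and 141, and those of POU5F1 were 61.8 and 186. POU5F1 and SOX2 had at most 3 peaks at any of the 3 Id genes in either culture, and POU3F1 had none.

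**Figure D3:**
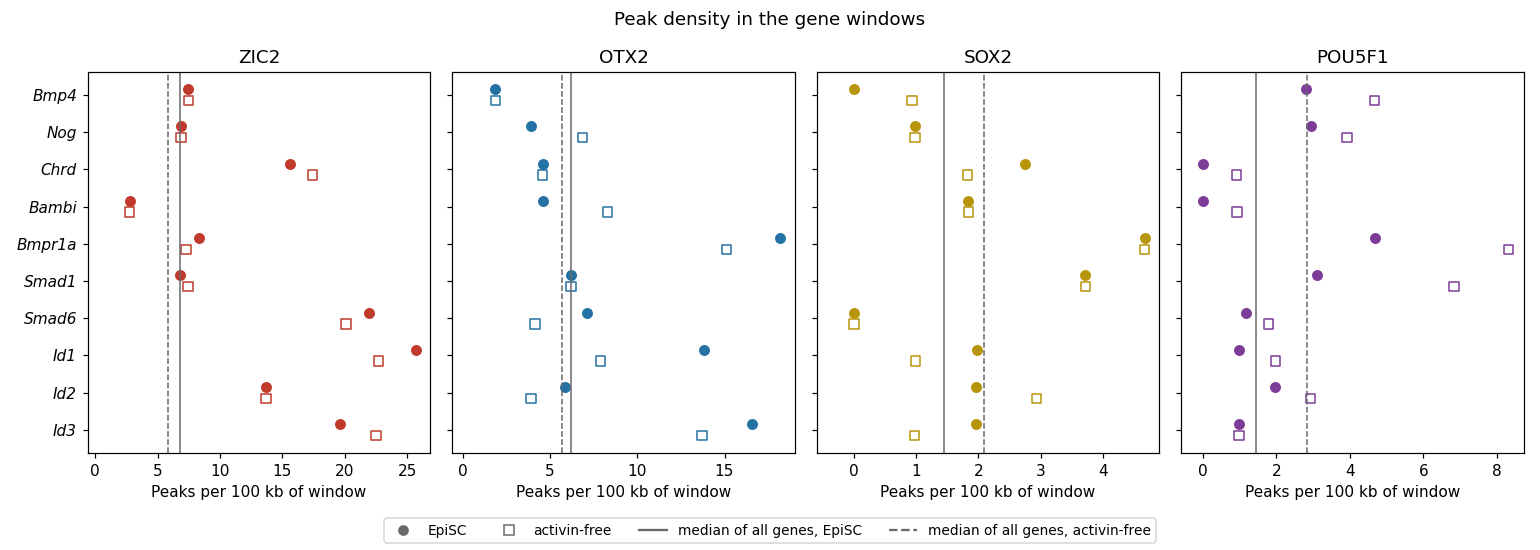
Peaks per 100 kb of window for ZIC2, OTX2, SOX2 and POU5F1 at each of the 10 genes, with circles for EpiSC, squares for the activin-free culture, and solid and dashed vertical lines for the medians of all protein-coding genes. The highest values in both cultures are those of Id1 for ZIC2 and of Bmpr1a for OTX2, and 1 library stands behind each symbol.

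ZIC2 and OTX2 peaks overlapped more often at these genes than in the whole lists. Of 110 OTX2 peaks in EpiSCs, 39, or 35.5%, overlapped a ZIC2 peak by at least 1 bp (95% Wilson interval 27.1 to 44.7, for counting error only), beside 17.8% of all OTX2 peaks. In the activin-free culture 33 of 95, or 34.7%, did so, beside 12%. Seen from ZIC2, 36 of 159 peaks, or 22.6% (16.8 to 29.7), overlapped an OTX2 peak in EpiSCs, beside 14.8% of the list. Fewer of these overlaps held under a stricter rule, which also drops a narrow peak that lies off-center inside a broad one. With midpoints at most 250 bp apart, 12 of the 110 OTX2 peaks, or 10.9% (6.35 to 18.1), coincided with a ZIC2 peak, beside 4.52% of the whole list. In the activin-free culture this stricter share was 7.37% (3.61 to 14.4), beside 2.66%. Seen from ZIC2, the stricter share in EpiSCs was 7.55% (4.37 to 12.7), beside 3.83%. In the activin-free culture it was 4.46% (2.18 to 8.92) beside 2.77%, and that interval included the list share. ZIC2 peaks were also denser in these windows than over all genes, and the part of this density in the overlap was not tested. By gene, sites that joined ZIC2 and OTX2 peaks numbered 8 at Smad6 and 7 at Id3 in EpiSCs, 5 each at Bmpr1a and Id1, 4 at Id2, 2 each at Chrd and Smad1, 1 at Nog and 0 at Bmp4 and Bambi.

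The share of POU5F1 peaks that a POU3F1 peak overlapped was lower at these genes than in the whole lists. The share of POU3F1 peaks that a POU5F1 peak overlapped was higher in EpiSCs, on few peaks that lay mostly at Bmpr1a. Of the 26 POU5F1 peaks in EpiSCs, 5, or 19.2% (8.51 to 37.9), overlapped a POU3F1 peak, beside 51.7% of all POU5F1 peaks. In the activin-free culture 9 of 47, or 19.1% (10.4 to 32.5), did so, beside 46.3%. Seen from POU3F1, 6 of 10 peaks in EpiSCs, or 60% (31.3 to 83.2), and 10 of 13 in the activin-free culture, or 76.9% (49.7 to 91.8), were overlapped by POU5F1, beside 28.0% and 54.6% of all POU3F1 peaks. The activin-free interval included the list share. The Bmpr1a window held 8 of the 10 POU3F1 peaks in EpiSCs and 10 of the 13 in the activin-free culture. POU3F1 had 0.797 peaks per 100 kb of these windows in EpiSCs, beside 2.63 pooled over all genes and a median of 0 by gene. The part of this density in the overlap was not tested. No ZIC2 peak in the windows overlapped a POU3F1 peak in either culture, where the whole lists had 1.16% and 1.89%. SOX2 and POU5F1 peaks did not overlap in EpiSCs (0 of 27 SOX2 peaks, with a 95% Wilson upper limit of 12.5%) and overlapped once in the activin-free culture, beside 8.00% and 14.7% of all SOX2 peaks.

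**Figure D4:**
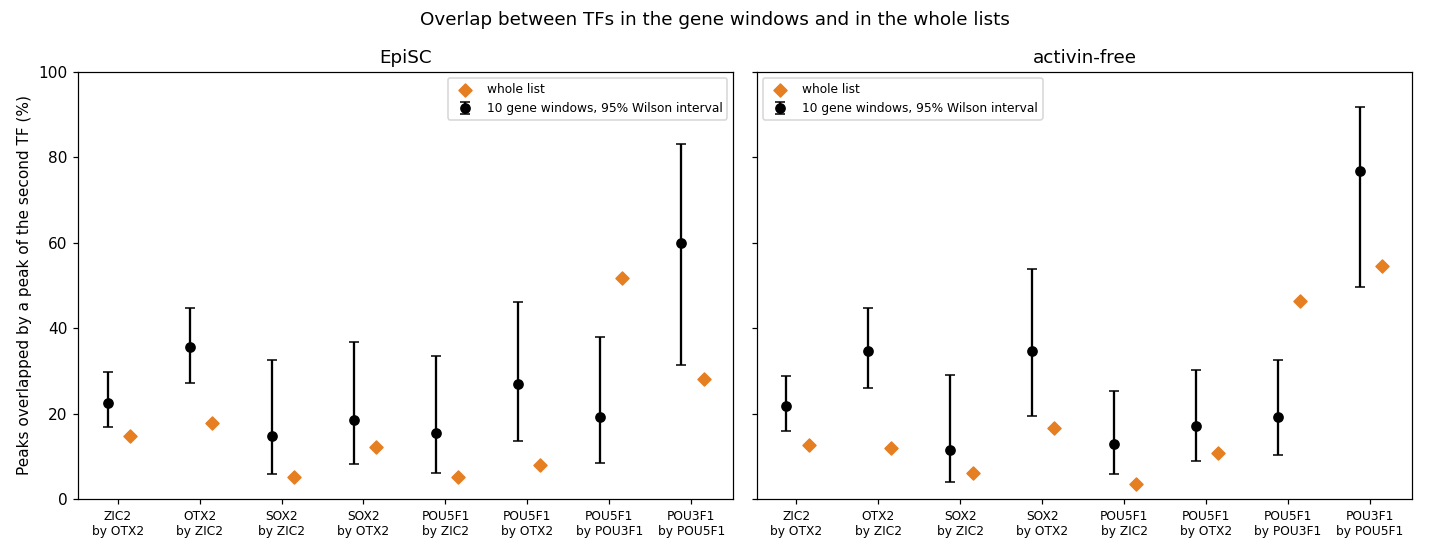
Percent of the peaks of the first TF that a peak of the second TF overlapped by at least 1 bp, in EpiSC at the left and in the activin-free culture at the right. Black circles with 95% Wilson intervals are the peaks in the 10 windows and orange diamonds are the whole lists, with the ZIC2 and OTX2 pairs above their diamonds and POU5F1 by POU3F1 below.

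Sites of 3 or more TFs were no more frequent than elsewhere. The EpiSC peaks formed 263 sites, of which 215 had 1 TF, 41 had 2 and 7 had 3, and the 7 were 2.66% beside 2.74% of all sites in the genome. The activin-free peaks formed 265 sites, of which 6, or 2.26%, had 3 or more TFs, beside 5.05%. In EpiSCs 2 of these sites were in Bmpr1a, centered 0.818 kb downstream of the TSS (ZIC2, OTX2 and SOX2) and 73.4 kb into the gene (OTX2, POU5F1 and POU3F1). The former extended over the Bmpr1a TSS, but no SOX2 peak lay within 1 kb of that TSS. The other sites were 103 kb downstream of the Smad1 TSS, 85.5 kb downstream of the Smad6 TSS (ZIC2, OTX2 and POU5F1), 28.6 kb upstream of Id2, and 8.20 and 2.88 kb upstream of Id3 (ZIC2, OTX2 and SOX2 at the last 3). The site closest upstream of Id3 was present in both cultures and held the BMP response sequence. Bmpr1a had 4 of the 6 sites of the activin-free culture.

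Between the cultures, ZIC2 peaks at these genes largely coincided. Of the 159 EpiSC peaks, 141, or 88.7% (82.8 to 92.7), overlapped a ZIC2 peak of the activin-free culture, beside 78.9% of the whole list. OTX2 and SOX2 had lower shares, 73.6% (64.7 to 81.0) of 110 and 70.4% (51.5 to 84.1) of 27, beside 78.1% and 77.6% of their lists. All 26 POU5F1 peaks (87.1 to 100) and all 10 POU3F1 peaks (72.2 to 100) of EpiSCs had a counterpart, beside 98.3% and 82.6%. The EpiSC peaks that had none were mostly weak. Those with a score of at least 100 numbered 7 of 123 for ZIC2, 3 of 53 for OTX2 and 1 of 12 for SOX2. The whole-list shares at this score are not given here. The highest of these peaks was an OTX2 peak 90.6 kb downstream of the Smad6 TSS with a score of 176. The 7 ZIC2 peaks had scores of 105 to 140, with 3 at Smad6, 2 at Bmpr1a and 1 each at Id1 and Id3. Of the 110 activin-free ZIC2 peaks with a score of at least 100, none lacked a counterpart in EpiSCs.

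Among the 5 TFs, POU5F1 had the highest ratio of activin-free to EpiSC peaks, at these genes and in the whole lists. The number in the windows was 26 in EpiSCs and 47 in the activin-free culture, a ratio of 1.81 (exact 95% interval 1.10 to 3.04, for counting error only), and 9 of 10 genes had more while Id3 had 1 in each. The whole POU5F1 lists differed by a ratio of 2.03, so the members followed the list. When both lists were reduced to the same length by score, the ratio in the windows was 0.885. The other ratios were 0.987 (0.787 to 1.24) for ZIC2, 0.864 (0.649 to 1.15) for OTX2, 0.963 (0.540 to 1.71) for SOX2 and 1.30 (0.527 to 3.31) for POU3F1, and each interval included equal numbers. The whole lists had ratios of 0.896, 1.10, 1.38 and 0.905.

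The scores of POU5F1 peaks differed in the same way. Of the 26 EpiSC peaks with a counterpart, 25 had the higher score in the activin-free culture, with a median ratio of 3.07, beside 98.4% higher and a median of 3.83 over the whole list. For ZIC2 the median ratio was 1.05, with 75 of 141 higher, and for OTX2 it was 1.12, with 45 of 81 higher, beside 1.09 and 1.35 over the lists. An activin-free peak that overlapped more than 1 EpiSC peak was paired with each of them. Seen from the activin-free culture, 55.3% of the 47 POU5F1 peaks had an EpiSC counterpart, beside 47.1% of the whole list. The shares were 93.0% beside 91.2% for ZIC2, 80.0% beside 67.5% for OTX2, 73.1% beside 55.9% for SOX2 and 76.9% beside 86.8% for POU3F1. At a score of 100 or more, the whole-list shares are not given here for any TF. Of the 36 activin-free POU5F1 peaks of this score, 11 had no EpiSC counterpart. The strongest were in Bmpr1a introns (580 and 304), 23.2 kb upstream of Id1 (385) and 43.0 kb downstream of the Bmp4 TSS (232). POU3F1 had 1 such peak, 1.07 kb upstream of the Smad1 TSS with a score of 107, where it overlapped POU5F1. OTX2 had 2, both at Bambi, and SOX2 had 1, 27.1 kb downstream of the Id2 TSS with a score of 146.

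**Figure D5:**
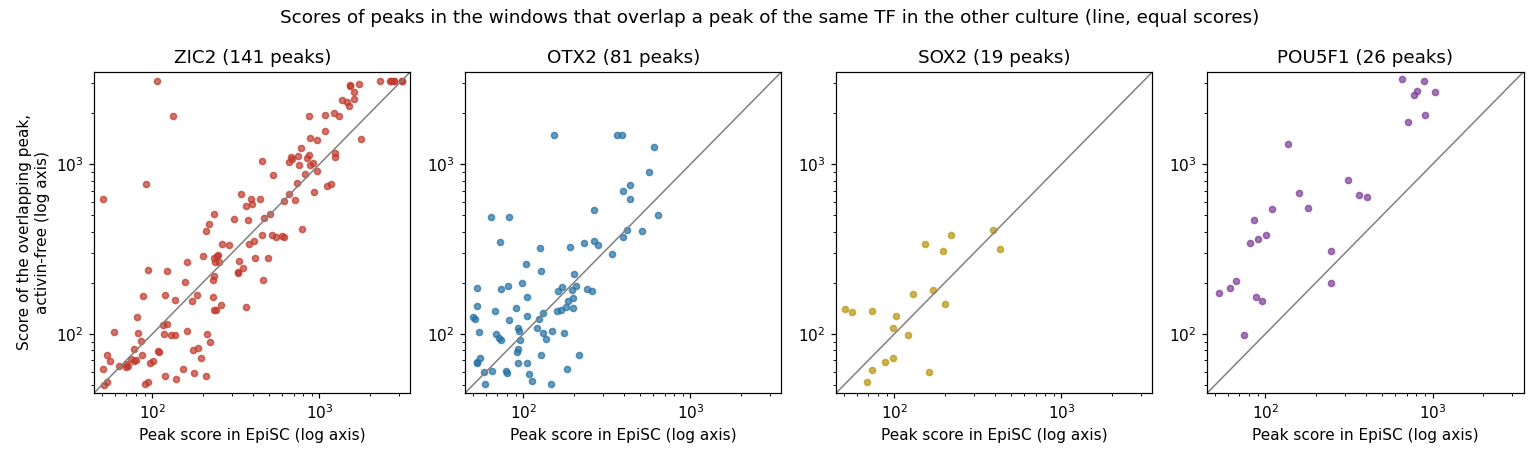
Score of each EpiSC peak in the 10 windows against the highest score of an overlapping peak of the same TF in the activin-free culture, on log axes, for ZIC2 (141 peaks), OTX2 (81), SOX2 (19) and POU5F1 (26). Points on the line have equal scores, and 25 of the 26 POU5F1 points lie above it.

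For ZIC2, OTX2, SOX2 and POU5F1 in EpiSCs, the interval for the preferred sequence under the peaks included the share of the whole list. For POU3F1 in EpiSCs it lay above that share, on few peaks. Within 100 bp of the midpoint, CAGCAGG was present in 17.6% of ZIC2 peaks (12.5 to 24.3), beside 19.1% of the list, and GGATTA in 22.7% of OTX2 peaks (15.9 to 31.4), beside 23.6%. The SOX sequences were in 44.4% of SOX2 peaks (27.6 to 62.7), beside 57.4%, and the octamer in 30.8% of POU5F1 peaks (16.5 to 50), beside 18.6%. The octamer was also in 4 of the 10 POU3F1 peaks in EpiSCs (interval 16.8 to 68.7%), beside 8.84% of the list. In the activin-free culture it was in 3 of 13 POU3F1 peaks (8.18 to 50.3%), beside 9.36%, and that interval included the list share. GGCGCC, the SMAD sequence, was in 9.43% of ZIC2 peaks (5.80 to 15), beside 3.99% of the list, and 1 of the OTX2 peaks had it. In the activin-free culture the ZIC2 share was 7.64% (4.43 to 12.9), beside 4.45%. A further feature was shared by the POU5F1 peaks, of which 18 of 26, or 69.2% (50 to 83.5), held a run of at least 20 bp of alternating purines and pyrimidines, beside 45.5% of the list, with 59.6% (45.3 to 72.4) beside 39.9% in the activin-free culture.

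At 33 other genes of the pathway, ZIC2 peaks were again the most frequent at promoters. ZIC2 peaks covered the TSS of 30 of them in EpiSCs and 31 in the activin-free culture, beside the 61.6% and 59.8% of all genes given above. OTX2 peaks covered 3 in each culture, beside 9.52% and 9.10% of all genes, and POU5F1 peaks covered none, beside 0.747% and 1.80%. A SOX2 peak covered 1 TSS (Smad4, activin-free), beside 5.12% of all genes. POU3F1 peaks covered 1 in EpiSCs (Bmp5), beside 1.57%, and 2 in the activin-free culture (Bmp5 and Smad4), beside 2.89%. The BMP response sequence was found in 5 of the 33 windows, or 15.2%, beside 3.76% of all genes, and all 5 matches were within 5 kb of the TSS and inside a ZIC2 peak in both cultures. They belonged to Id4, the fourth Id gene (scores of 2120 and 3222), Msx1 and Msx2, homeobox genes induced by BMP (1018 and 1206, and 1077 and 1501), Grem1, which encodes the antagonist gremlin (1370 and 1425), and Skil, which encodes the SMAD corepressor SnoN (2946 and 3100). Peaks of 3 or more TFs lay over or within 1 kb of the TSS in both cultures at Bmp5, Smurf2, Twsg1 and Skil. At Acvr1 and Smad7 they did so in EpiSCs, and at Bmpr2, Smad4 and Smurf1 in the activin-free culture. The share of all protein-coding genes with 3 or more TFs so placed is not given here, so these names say nothing about the pathway as a set.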

How the data were processed

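Reads were aligned by the authors (Bowtie2, mm9), and MACS was run by them on each library against EpiSC input DNA, with a shortened band width. The deposited values are peak scores, −10 log10 of a p-value, which depend on sequencing depth, so the median score ratio over each whole list is given before scores of both cultures are set side by side. The sequenced input was not analysed here. Genes and TSSs came from GENCODE vM1, and the 5′ end of the gene was the TSS. Overlap meant at least 1 shared bp. Sequences were read from mm9 (pysam 0.24.0), and intervals were Wilson or exact binomial (scipy 1.17.1). The intervals cover counting error only, and neighboring peaks are not independent. Counting and overlap steps were tested on simulated lists and recovered 100% of the planted overlaps. Every member was named, with its highest peak per TF, peaks over the TSS, sites of 3 or more TFs, and peaks of score 100 or more without a counterpart. The members, gene lists and sequences were chosen with earlier results of these data known, and the BMP response stretches and peak examples after their values were seen.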

Additional observations from a re-analysis of the deposited data

How the results depend on the processing

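Densities, TSS counts, ratios of peak number, shares with a counterpart, the ZIC2 and OTX2 overlaps, sites of 3 or more TFs and the BMP response matches were recomputed under 2 to 10 alternatives each, and other values were not. Of these, 221 of 270 recomputed values stayed within 1.5 times the reported count or density, or within the 95% interval of the reported share or ratio. The lists hold no reads, so depth could not be checked, and 1 library per TF and culture leaves the spread between libraries unknown. No paired analysis was possible because each group is 1 library and the labels give no replicate numbers. In all that follows the cause was not tested.

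With a score of at least 100, the density per 100 kb fell to 4.22 for OTX2, 0.956 for SOX2 and 1.35 for POU5F1 in EpiSCs, and to 4.46 for OTX2, 1.12 for SOX2 and 0.398 for POU3F1 in the activin-free culture. The share of EpiSC peaks with a counterpart became 81.3% for ZIC2 and 42.9% for POU3F1, ZIC2 peaks overlapped by OTX2 in EpiSCs became 13.8%, sites of 3 or more TFs numbered 2 and 3, and 1 member had an OTX2 peak over the TSS in EpiSCs. Of the 6 BMP response matches, 5 lay in a ZIC2 peak of this score in EpiSCs and 6 in the activin-free culture, and all 6 did in both with lists of equal length. These 2 settings for the matches were chosen after seeing the data. With lists of equal length, the POU5F1 ratio was 0.885, its share with a counterpart 73.1% and its activin-free density 1.83, and the activin-free SOX2 density was 1.35.

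With peaks limited to those nearest to the TSS of the member, still divided by the whole window, densities were 7.89 and 7.73 for ZIC2. They were 5.50 for OTX2 in EpiSCs, 1.04 and 2.23 for POU5F1, and 0.239 and 0.319 for POU3F1. The values over all genes were not recomputed by this rule. There were 2 sites of 3 or more TFs in the activin-free culture. Within 50 kb of the TSS alone, POU3F1 densities were 0.300 and 0.400, and sites of 3 or more TFs numbered 4 and 3. A flank of 100 kb gave 11 such sites in the activin-free culture, and a flank of 20 kb an OTX2 share with a counterpart of 82.1%.

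At 50% reciprocal overlap, the shares with a counterpart were 80.5% for ZIC2 and 64.5% for OTX2, ZIC2 peaks overlapped by OTX2 were 8.18% and 5.73%, and OTX2 peaks overlapped by ZIC2 were 11.8% and 9.47%. With midpoints within 250 bp these were 77.4%, 63.6%, 7.55% and 4.46%, and 10.9% and 7.37%. A peak within 1 kb of the TSS was found at 4 members for OTX2 and 1 for POU5F1 in EpiSCs, and at 1 each for POU5F1 and POU3F1 in the activin-free culture. With the TSSs of all transcripts, 1 member had a POU3F1 peak in each culture and 1 a POU5F1 peak in the activin-free culture.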
